A study of Mus musculus with 16 samples.

Results

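The nuclear genes of the mitochondrial respiratory chain and of ATP synthase were examined complex by complex in mouse enteroids with and without functional MYO5B. A gene was included if it was annotated as protein coding and its symbol began with Nduf, Uqcr or Atp5, was Sdha, Sdhb, Sdhc or Sdhd, began with Cox5, Cox6, Cox7, Cox8 or Cox4 followed by a, b or c, or was Cyc1 or Cycs. This gave 94 of the 54532 genes in the count table, of which 22046 are protein coding. The 94 genes carry 93 symbols, since Atp5o is listed under 2 identifiers. Of these, 78 encode generally expressed subunits or cytochrome c: 36 belong to complex I, 4 to complex II, 9 to complex III, 11 to complex IV and 17 to complex V, and 1 is cytochrome c. The remaining members are 8 assembly factors of complex I, 7 isoforms of complex IV subunits that are known for tissue-restricted expression, and Atp5s. The last matches by its symbol and is not a subunit.

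Jejunal crypts were grown as enteroids, a culture made of epithelium alone, and polyadenylated RNA was sequenced from 16 cultures in 4 groups of 4, each group from 4 mice. MYO5BΔIEC enteroids had the genotype Vil-CreERT2;Myo5b-flox/flox and MYO5B(G519R) enteroids Vil-CreERT2;Myo5b-flox/G519R, so that the latter kept 1 allele with the point mutation. Cre was induced in both with 1 µM 4-OH-tamoxifen for 24 h, and the Vil promoter that drives it is active in intestinal epithelium. A further group of MYO5BΔIEC enteroids received 100 nM Compound-1, an agonist of the lysophosphatidic acid receptor LPAR5, for 2 days, and the MYO5BΔIEC group without it received its vehicle, PBS. The control cultures are labeled as control with no treatment. Per the methods they came from mice of the same Vil-CreERT2;Myo5b-flox/flox genotype as MYO5BΔIEC enteroids and received ethanol. A legend instead calls them healthy littermates. All groups were grown in the same media and differentiated without Wnt ligands and EGF. The labels give 4-OH-tamoxifen to every group but the controls, so an effect of the drug and an effect of MYO5B loss cannot be told apart in a comparison with control. MYO5B is myosin Vb, a motor that carries recycling endosomes to the apical membrane of enterocytes, and its loss causes microvillus inclusion disease.

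In the respiratory chain, complex I (NADH dehydrogenase) and complex II (succinate dehydrogenase) pass electrons to ubiquinone, complex III passes them on to cytochrome c, and complex IV reduces oxygen. Complexes I, III and IV pump protons across the inner membrane, and complex V, the ATP synthase, uses that gradient to make ATP. Most subunits are encoded in the nucleus and imported, and the remainder are encoded by the mitochondrial genome, so each complex except II needs transcripts from both. Absorptive enterocytes are rich in mitochondria and spend much ATP on ion pumping and nutrient uptake.

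Many nuclear respiratory genes are known targets of the factor NRF1 and of the ETS factor GABP. Promoters could be matched in the RefSeq promoter table of GRCm38.p6 for 77 of the 93 symbols, 75 by symbol and 2 by synonym. In windows of 300 bases around the start, the NRF1 letters GCGCATGCG occurred on either strand in 11 of 77 member promoters (14.3%) and in 1.95% of all 27025 promoters. The ETS letters CCGGAAG occurred in 18 member promoters (23.4%) against 9.93% of all, the YY1 letters AAGATGGCG in 8 (10.4%) against 1.64%, and the letters TCAAGGTCA of estrogen-related receptors in 2 (2.6%) against 0.466%. At least 1 of these 4 was found in 32 member promoters (41.6%) and in 13.1% of all. A match describes letters and is no evidence of binding, and a link between matches and fold changes was not tested. In the sections by complex, matches are mentioned for only some of the members that have them. The following 7 windows of 150 bases before the start are shown because each holds a match and they cover every complex, with the matching letters in capitals on the coding strand. The runs in Ndufaf4 and Atp5k match NRF1 on both strands with overlapping letters.
Ndufa8 (chr2:36049339-36049488, minus strand): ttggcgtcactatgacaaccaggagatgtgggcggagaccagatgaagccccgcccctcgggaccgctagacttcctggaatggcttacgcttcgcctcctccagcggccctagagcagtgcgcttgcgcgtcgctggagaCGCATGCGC
Ndufaf4 (chr4:24897933-24898082, plus strand): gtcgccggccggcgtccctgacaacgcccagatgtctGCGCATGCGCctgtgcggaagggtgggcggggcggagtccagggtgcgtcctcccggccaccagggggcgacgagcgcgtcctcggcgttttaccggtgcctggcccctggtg
Sdhd (chr9:50603850-50603999, minus strand): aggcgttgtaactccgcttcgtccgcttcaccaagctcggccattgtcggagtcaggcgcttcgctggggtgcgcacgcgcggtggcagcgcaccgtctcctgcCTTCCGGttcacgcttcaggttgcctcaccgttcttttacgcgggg
Uqcr11 (chr10:80406822-80406971, minus strand): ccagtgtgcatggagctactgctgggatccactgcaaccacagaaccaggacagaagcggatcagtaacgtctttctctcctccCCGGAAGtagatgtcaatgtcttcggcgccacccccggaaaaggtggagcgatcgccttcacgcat
Cycs (chr6:50566570-50566719, minus strand): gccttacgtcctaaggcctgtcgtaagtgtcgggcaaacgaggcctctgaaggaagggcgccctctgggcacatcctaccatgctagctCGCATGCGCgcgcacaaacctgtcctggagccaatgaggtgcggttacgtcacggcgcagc
Cox6a1 (chr5:115348959-115349108, minus strand): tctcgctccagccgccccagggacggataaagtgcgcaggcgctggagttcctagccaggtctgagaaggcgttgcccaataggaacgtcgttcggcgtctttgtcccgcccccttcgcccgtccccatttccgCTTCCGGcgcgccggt
Atp5k (chr5:108434400-108434549, minus strand): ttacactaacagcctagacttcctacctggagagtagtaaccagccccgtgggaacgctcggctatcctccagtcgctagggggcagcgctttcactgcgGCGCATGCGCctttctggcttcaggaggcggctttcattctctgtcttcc

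Between 27804968 and 40101729 reads were counted per culture. Myo5b, the targeted gene, was at 159.7, 229.6, 191 and 176 CPM (read counts scaled by TMM-adjusted library size) in control cultures 1 to 4 and at 135, 109, 169.5 and 101 CPM in MYO5BΔIEC cultures, a log2 fold change of -0.55 ± 0.188 SE (adjusted p = 0.0503 by edgeR). It was at 139, 153, 173 and 136 CPM in MYO5B(G519R) cultures, with -0.33 (adjusted p = 0.109 by edgeR), and at 149, 106, 87.2 and 101 CPM in treated MYO5BΔIEC cultures, with -0.77 against control (adjusted p = 0.0146 by edgeR). Reads outside the deleted part of the gene are counted too, so this level checks the deletion only in part. The sum of 7 epithelial markers was 5449 to 6584 CPM in control and 7134 to 12599.5 CPM in the other groups, and 6 fibroblast, 6 immune and 4 muscle markers summed to at most 0.956, 1.3 and 0.344 CPM in any culture, with Col3a1, Dcn, Lum and Adgre1 at 0 throughout. Of the 7 epithelial markers, 4 were higher in MYO5BΔIEC enteroids, 3 in MYO5B(G519R) enteroids and 5 in treated enteroids, each against control. Among all genes tested, 13.5%, 13.1% and 15.7% were higher in these comparisons. Control culture 1 stood apart from the other 3 controls. Its 13 enterocyte markers summed to 4201 CPM, against 15032.7 to 18949.9 CPM in the other 3, and it was the lowest of the controls for 81 of the 89 members with a mean of at least 1 CPM. The log2 ratio of its level to the mean of the other controls had a median of -1.17 over these members (range -4.64 to 0.64), while the median over all 13545 genes at that level was 0.022. The plot of this ratio against gene length shows that the shorter members were the further down, with a Spearman rho of 0.551 over 89 members, which share the same 4 libraries, and of 0.397 over all genes. The members are short, with a median length of 1709 bases against 3463 bases for all genes tested, and 76 of 90 were under the latter. Across the 90 members, log2 fold change and length had a Spearman rho of 0.393 in MYO5BΔIEC and 0.232 in MYO5B(G519R), against 0.286 and 0.294 across all genes, as a description of genes that share the same libraries. The part of gene length and of this culture in the results was not tested beyond the values given without them. Its genotype label was kept, and the counts by complex are given with it and without it for both models. Control culture 1 was singled out in part by its low values for these same members. Lower calls and smaller p-values without it are therefore no independent support for a difference.

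**Figure D1:**
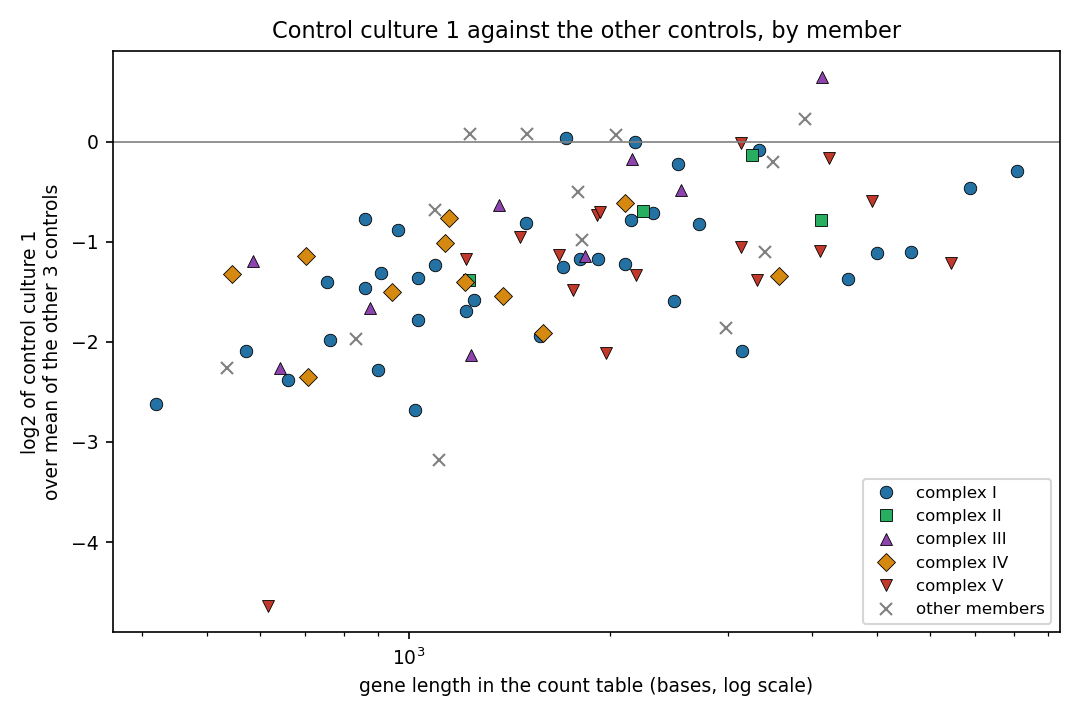
Log2 ratio of control culture 1 to the mean of the other 3 control cultures (vertical axis) against gene length in bases (horizontal axis, log scale), 1 point per member with a mean of at least 1 CPM, with symbols by complex. Most of the 89 points lie under 0 (median -1.17), and the lowest, at -4.64, is that of Atp5k.

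The summed level of the 78 genes of subunits and cytochrome c was 13929, 24084, 24131 and 25637 CPM in control cultures 1 to 4. It was 14982, 14219.5, 14247 and 14124 CPM in the MYO5BΔIEC cultures, 16323, 16075, 12924 and 16995 CPM in the MYO5B(G519R) cultures and 12882, 16862, 12749 and 14547 CPM in the treated MYO5BΔIEC cultures. Control cultures 2 to 4 were above all 12 others, and control culture 1 was inside the range of the 12. For each complex too, the sums of control cultures 2 to 4 were above those of all 12 others, as the plot of summed levels by complex shows. Per length, the highest control levels in the deposited FPKM were those of Cox8a (885 ± 321; SD, n = 4), Cox6a1 (719 ± 233) and Atp5a1 (577 ± 6.46). In bulk RNA, fewer cells of a type and less RNA per cell cannot be told apart, and here the enterocyte markers summed to 8113 to 15244 CPM in MYO5BΔIEC, 7146 to 10884 CPM in MYO5B(G519R) and 7433 to 9791 CPM in treated MYO5BΔIEC enteroids. The 7 proliferation markers summed to 1688 to 2074 CPM in control against 806 to 1776 CPM in the other groups, and the 4 stem cell markers to 2166 to 6149 CPM against 405 to 2316 CPM. In MYO5BΔIEC, 2 of 13 enterocyte markers were higher, 1 of 4 stem cell markers lower and 4 of 7 proliferation markers lower, and in MYO5B(G519R) 1 enterocyte marker was lower and 1 higher, 1 stem cell marker lower and 3 proliferation markers lower. In treated enteroids, 3 enterocyte markers were lower and 2 higher than in control, 1 stem cell marker lower and 3 proliferation markers lower. Leaving out control culture 1 gave 3 lower and 2 higher enterocyte markers in MYO5BΔIEC, 6 lower and 1 higher in MYO5B(G519R) and 5 lower and 2 higher in treated enteroids. It left the counts of lower stem cell and proliferation markers as they were and added 1 higher stem cell marker in MYO5BΔIEC, and 2 higher stem cell markers and 1 higher proliferation marker in MYO5B(G519R). Without that culture, 20.8%, 22.1% and 19.2% of all genes were lower in MYO5BΔIEC, MYO5B(G519R) and treated enteroids. The part of these markers in the results was not tested.

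**Figure D2:**
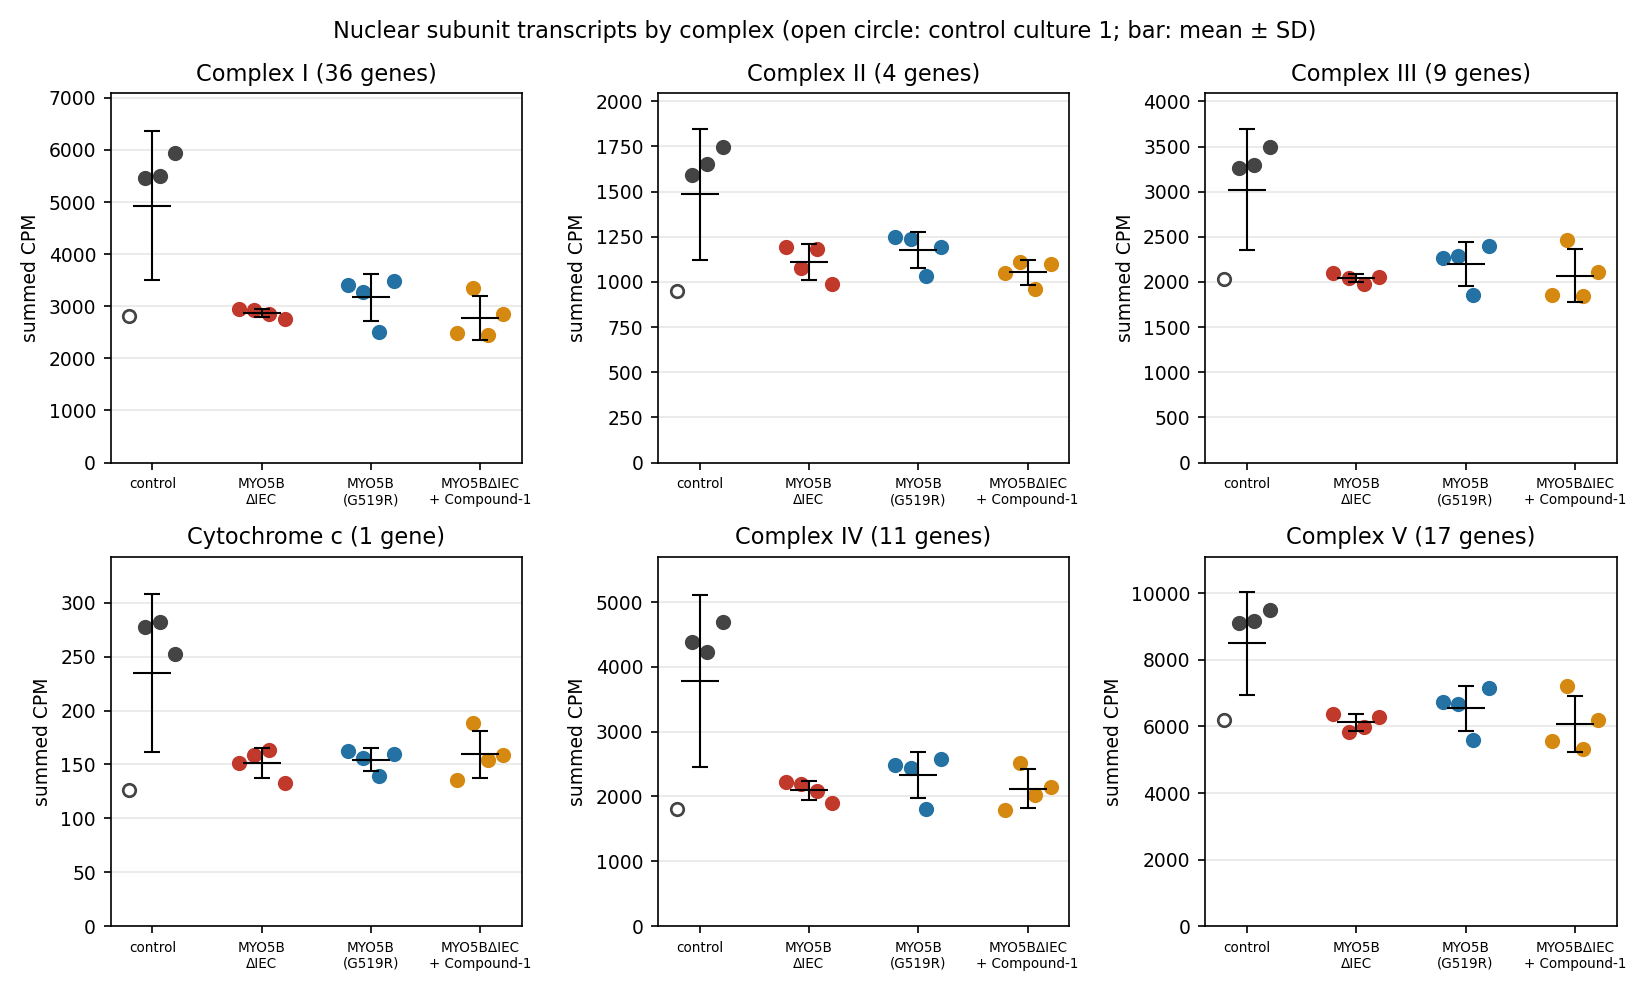
Summed CPM of the nuclear subunit genes of each complex and of cytochrome c (vertical axes, from 0) in the 4 groups, 1 circle per culture, with the mean and SD as a black bar and control culture 1 as an open circle. In complex I, control cultures 2 to 4 sit between 5464 and 5949 CPM, control culture 1 at 2816 CPM and all MYO5BΔIEC cultures between 2764 and 2948 CPM.

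Most nuclear respiratory genes had values below control in MYO5BΔIEC enteroids, in every complex. Genes were tested with edgeR's quasi-likelihood test, with Benjamini-Hochberg adjustment over all genes tested and a threshold of 0.05, and 90 members had enough counts. A log2 fold change is given with its standard error (SE) where a result turns on it. Of these, 48 were lower and 1 was higher, where 13.8% of all 17951 genes tested were lower and 13.5% higher. The median log2 fold change was -0.86 over the members and -0.011 over all genes. DESeq2 called 67 members lower and 2 higher, and its share over all genes is not given here. The 2 groups did not overlap, with all MYO5BΔIEC cultures below all controls, for 29 of 90 members and for 13.8% of all genes. With control culture 1 left out, 80 were lower and 2 higher (20.8% of all genes lower) and the median was -1.06. The count fell to 31 without control culture 2, to 28 without control culture 3 or 4, to 32 without MYO5BΔIEC culture 1 and to 27 without MYO5BΔIEC culture 2. For these smaller fits no share of all genes is given here, so the counts are not set against one. After subtraction of each library's trend with gene length, 40 were lower (15.3% of all genes) and 1 higher, at a median of -0.64.

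In MYO5B(G519R) enteroids, 35 of 90 members were lower than in control and none was higher, where 13.7% of all 17829 genes tested were lower and 13.1% higher. The edgeR median log2 fold change was -0.71 over the members and -0.052 over all genes, and the groups did not overlap for 17 members, against 13.8% of all genes. DESeq2 called 44 members lower and 1 higher, and 55 members passed an unadjusted p of 0.05 in either direction. No share over all genes is given here beside these counts. Without control culture 1, 78 members were lower and 2 higher (22.1% of all genes lower), at a median of -0.92. The count fell to 14, 12 and 13 without control culture 2, 3 and 4, and to 19, 17 and 12 without MYO5B(G519R) culture 1, 2 and 3. Shares of all genes in these smaller fits are not given here, so whether such counts exceed them is not shown. With the length trend removed, 30 were lower (14.8% of all genes) and 2 higher, and the median was -0.41. Both models were compared with the same control cultures, so their fold changes are not independent of each other and are given side by side.

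**Figure D3:**
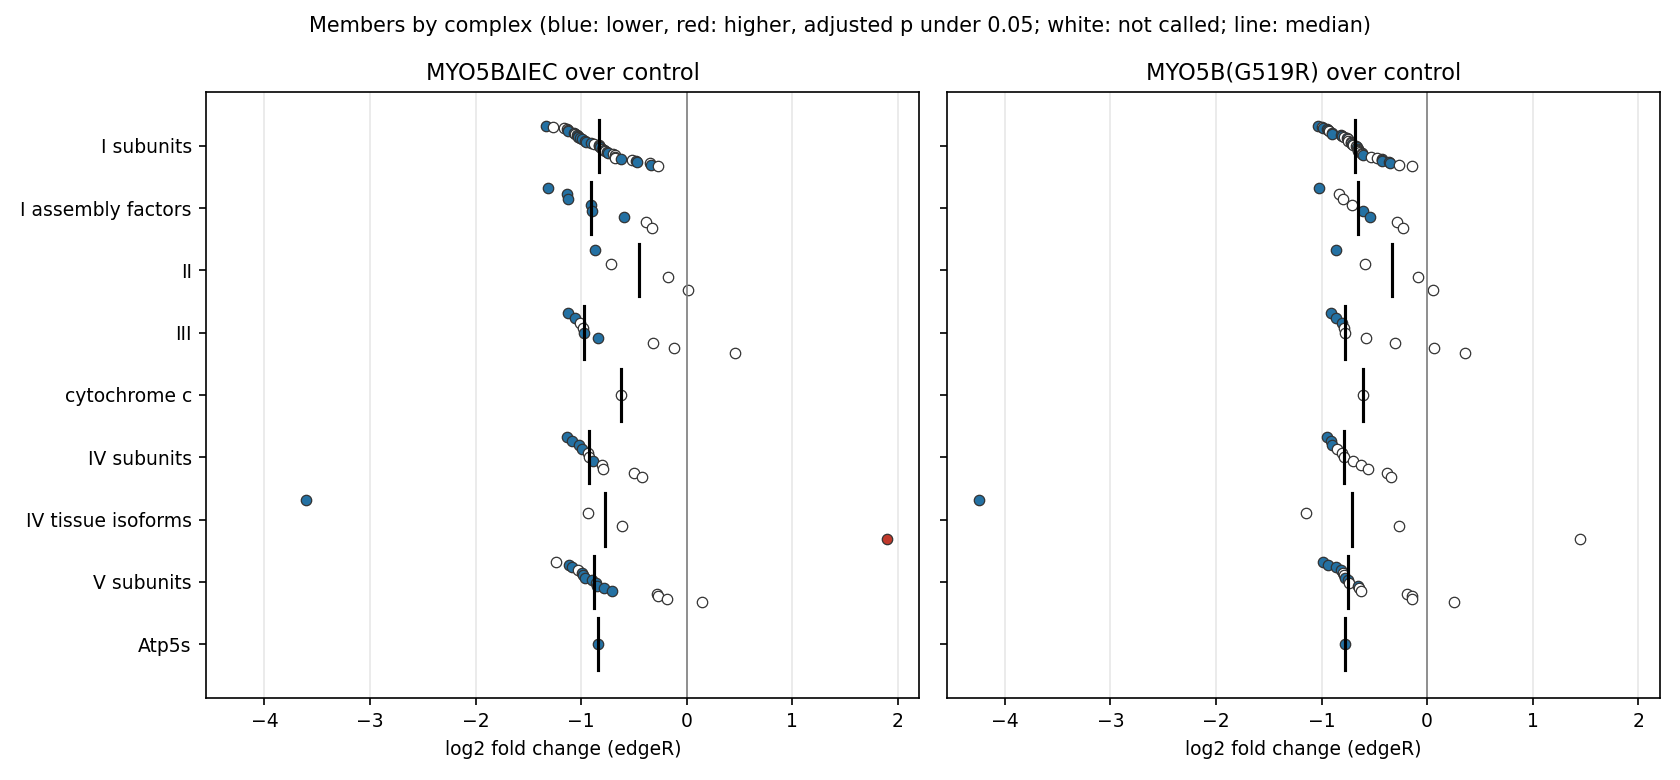
Log2 fold change of each tested member (horizontal axis) by complex and class (vertical axis) for MYO5BΔIEC over control on the left and MYO5B(G519R) over control on the right, with lower calls in blue, higher calls in red and other members in white, and a black line at each median. Most points lie left of 0 in both panels, with complex I medians of -0.83 and -0.69.

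Complex I had transcripts below control for all 36 subunit genes in both models, and 20 passed the test in MYO5BΔIEC and 16 in MYO5B(G519R). The median log2 fold change of the 36 was -0.83 in MYO5BΔIEC, with single values from -1.33 to -0.27, and -0.69 in MYO5B(G519R). The 7 nuclear core subunits, which carry the flavin and the iron-sulfur clusters or form the ubiquinone site, had a median of -0.48 and the 29 accessory subunits one of -0.88 in MYO5BΔIEC, with 5 and 15 lower. With the first control culture left out, all 36 were lower in MYO5BΔIEC and 34 in MYO5B(G519R). The difference between core and accessory subunits was not tested. The 36 summed to 2816, 5464, 5499 and 5949 CPM in control, so that culture 1 was far below the other controls, and to 2948, 2921, 2845 and 2764 CPM in MYO5BΔIEC and 3416, 3267, 2504 and 3493 CPM in MYO5B(G519R) cultures.

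Among the core subunits, Ndufv2 (ENSMUSG00000024099, chr17:66078638-66101559 in GRCm38), an iron-sulfur subunit of the NADH-oxidizing module, was at 180.2, 302, 318 and 307 CPM in control, 131, 137, 140.1 and 138 CPM in MYO5BΔIEC and 161, 156, 123 and 153 CPM in MYO5B(G519R) cultures. Every culture of both models was below every control, control culture 1 included. Its log2 fold change was -1.01 ± 0.183 SE (adjusted p = 0.00378 by edgeR) in MYO5BΔIEC and -0.90 ± 0.185 SE (adjusted p = 0.00746 by edgeR) in MYO5B(G519R), and both calls held with each culture left out in turn. Ndufs8, an iron-sulfur subunit of the ubiquinone-binding module, was at 95.4, 173, 174 and 181 CPM in control and 76.9, 73.3, 76.8 and 85.7 CPM in MYO5BΔIEC cultures, a log2 fold change of -0.99 ± 0.195 SE (adjusted p = 0.00534 by edgeR). In MYO5B(G519R) cultures it was at 94.3, 91.6, 70.3 and 98.7 CPM, with -0.81 ± 0.203 SE (adjusted p = 0.0165 by edgeR), and the call was lost without MYO5B(G519R) culture 3 (adjusted p = 0.0514 by edgeR) or control culture 3 (adjusted p = 0.0512 by edgeR).

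Ndufs7, which sits at the ubiquinone site, differed from most members in that control culture 1 was level with the other controls. It was at 168, 173, 154 and 167 CPM in control, 117, 110.0, 125 and 121 CPM in MYO5BΔIEC and 132, 131, 97.6 and 133 CPM in MYO5B(G519R) cultures. Its log2 fold changes were -0.48 ± 0.115 SE (adjusted p = 0.0127 by edgeR) and -0.42 ± 0.124 SE (adjusted p = 0.0308 by edgeR), smaller than those of Ndufv2 but without overlap in either model, and the second was lost when any of 6 cultures was left out (edgeR's adjusted p up to 0.0788). Ndufs1, the large iron-sulfur subunit, was at 163, 209.5, 202 and 189 CPM in control, 129, 123, 147 and 151 CPM in MYO5BΔIEC and 151, 142, 128 and 149 CPM in MYO5B(G519R) cultures, again with no overlap. Its values of -0.47 (adjusted p = 0.0269 by edgeR) and -0.42 (adjusted p = 0.0247 by edgeR) were lost without any of 5 and 6 cultures, at edgeR's adjusted p up to 0.0881 and 0.0755. Ndufv1, the subunit that binds NADH and the flavin, had the smallest difference of the complex in MYO5BΔIEC, at 163 to 191 CPM in control and 137 to 166 CPM in MYO5BΔIEC cultures, with -0.27 ± 0.127 SE (adjusted p = 0.141 by edgeR).

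Of the accessory subunits, Ndufb11 (ENSMUSG00000031059, chrX:20615326-20617619), a small protein of the membrane arm, had the largest fall of the complex in MYO5BΔIEC with all controls, whereas without control culture 1 Ndufa1 had a log2 fold change of -1.60 and Ndufb11 -1.56. Ndufb11 was at 84, 195, 196 and 236 CPM in control, 73.6, 76.6, 65 and 66.2 CPM in MYO5BΔIEC and 101, 87.1, 62.4 and 96 CPM in MYO5B(G519R) cultures. The MYO5BΔIEC cultures were all below the controls, while some MYO5B(G519R) cultures were above control culture 1. Its log2 fold changes were -1.33 ± 0.265 SE (adjusted p = 0.00547 by edgeR) and -1.04 ± 0.283 SE (adjusted p = 0.0237 by edgeR), and the second was lost without any of control cultures 2, 3 and 4 or MYO5B(G519R) cultures 2 and 3 (adjusted p = 0.0587 to 0.0704 by edgeR). Ndufab1, the mitochondrial acyl carrier protein, which is also part of complex I, was at 106, 151, 145 and 146 CPM in control, 82.4, 78.3, 92 and 103 CPM in MYO5BΔIEC and 89.3, 93.8, 78 and 98.9 CPM in MYO5B(G519R) cultures. It did not overlap in either model, with -0.62 (adjusted p = 0.0135 by edgeR) and -0.60 (adjusted p = 0.0109 by edgeR), although the first was lost without MYO5BΔIEC culture 2 (adjusted p = 0.0507 by edgeR).

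Ndufb8 encodes the complex I subunit whose protein was stained in the study. Its transcript was at 26, 103, 105 and 123 CPM in control, 66.2, 64.4, 41.3 and 48.1 CPM in MYO5BΔIEC and 76.6, 69.1, 52.6 and 67 CPM in MYO5B(G519R) cultures. Control culture 1 was below all 8 cultures of the models and the other 3 controls were above all of them. The log2 fold changes of -0.69 ± 0.383 SE (adjusted p = 0.204 by edgeR) and -0.43 ± 0.376 SE (adjusted p = 0.432 by edgeR) did not pass, and without control culture 1 they were -1.0 (adjusted p = 0.000882 by edgeR) and -0.70 (adjusted p = 0.00118 by edgeR).

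Ndufa8, whose promoter holds the NRF1 letters printed here, Ndufb4, Ndufb5, Ndufc1, Ndufs4, Ndufs7, Ndufs8, Ndufv2 and Ndufb11 were lower in MYO5BΔIEC in every fit with 1 culture left out. The other 11 lower calls of complex I in MYO5BΔIEC were lost in at least 1 such fit (edgeR's adjusted p up to 0.136). In MYO5B(G519R), only Ndufab1, Ndufc1 and Ndufv2 of the 16 kept the call in all 8 fits (edgeR's adjusted p up to 0.131 for the rest).

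The assembly factors of complex I help to build the enzyme but are not part of it. Of the 8, 6 were lower in MYO5BΔIEC, at a median of -0.90 on the log2 scale, and 3 in MYO5B(G519R), with a median of -0.66. In the fits that leave out control culture 1, 7 and 7 of the 8 were lower, at medians of -1.04 and -0.74. Ndufaf4 (ENSMUSG00000028261, chr4:24898083-24905001) was at 91.2, 76.8, 82.8 and 75 CPM in control, 35, 28.3, 36.4 and 49.6 CPM in MYO5BΔIEC and 39.8, 38.5, 30.8 and 51.4 CPM in MYO5B(G519R) cultures. Here control culture 1 was the highest of all cultures, and no culture of either model reached the controls. Its log2 fold changes were -1.12 ± 0.171 SE (adjusted p = 0.00207 by edgeR) and -1.02 ± 0.155 SE (adjusted p = 0.00272 by edgeR), and both held in every fit with 1 culture left out. Ndufaf1, Ndufaf3 and Ndufaf5 in MYO5BΔIEC and Ndufaf1 in MYO5B(G519R) also kept their lower calls in all 8 fits.

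Complex II is the only complex made from nuclear genes alone, and Sdhb was the only one of its 4 subunits that passed in either model with all controls, while leaving out control culture 1 gave 2 lower genes in each. The 4 summed to 949, 1592, 1652 and 1745 CPM in control, 1195, 1077, 1184 and 988 CPM in MYO5BΔIEC and 1250.1, 1237, 1034 and 1196 CPM in MYO5B(G519R) cultures. Sdhb (ENSMUSG00000009863, chr4:140961203-140979193), the iron-sulfur subunit, was at 219.5, 362, 357 and 349 CPM in control, 183, 156, 201 and 164 CPM in MYO5BΔIEC and 191, 185, 149 and 182 CPM in MYO5B(G519R) cultures. All cultures of both models were below all controls. Its log2 fold changes were -0.86 ± 0.183 SE (adjusted p = 0.00716 by edgeR) and -0.86 ± 0.173 SE (adjusted p = 0.00678 by edgeR), which held with each culture left out in turn. Sdhd is a membrane anchor whose promoter holds the ETS letters, as does that of Sdhb. Sdhd was at 185, 470.1, 487 and 491 CPM in control, 276, 253, 240.5 and 218 CPM in MYO5BΔIEC and 289, 274, 239.9 and 286 CPM in MYO5B(G519R) cultures. Its values were -0.72 (adjusted p = 0.0732 by edgeR) and -0.58 (adjusted p = 0.136 by edgeR), and without control culture 1 they were -0.96 (adjusted p = 0.000158 by edgeR) and -0.80 (adjusted p = 0.000151 by edgeR). The catalytic flavoprotein Sdha was at 364, 584, 622 and 673 CPM in control, 541, 489, 510.5 and 432 CPM in MYO5BΔIEC and 559, 559.5, 473 and 526 CPM in MYO5B(G519R) cultures. The other membrane anchor, Sdhc, was at 180.2, 176, 186 and 232 CPM in control, 195, 179, 232 and 174 CPM in MYO5BΔIEC and 211, 219, 172 and 202 CPM in MYO5B(G519R) cultures. Both overlapped with control, Sdha only through control culture 1, and neither was called in any fit with 1 culture left out. Without control culture 1, Sdha was at -0.34 (adjusted p = 0.05 by edgeR) and -0.21 (adjusted p = 0.125 by edgeR). Sdhc was then at -0.018 (adjusted p = 0.936 by edgeR) and 0.052 (adjusted p = 0.766 by edgeR). With all controls, the log2 fold changes of Sdha were -0.18 ± 0.198 SE (adjusted p = 0.545 by edgeR) and -0.082 ± 0.186 SE (adjusted p = 0.787 by edgeR), and those of Sdhc were 0.016 ± 0.15 SE (adjusted p = 0.952 by edgeR) and 0.053 ± 0.131 SE (adjusted p = 0.806 by edgeR).

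Complex III held both lower members and Uqcrc1, which had the highest log2 fold change of any subunit in MYO5BΔIEC. Its sum was 2030.3, 3266, 3297 and 3490.2 CPM in control, 2097, 2045, 1981 and 2056 CPM in MYO5BΔIEC and 2269, 2286, 1851 and 2399 CPM in MYO5B(G519R) cultures. Of 9 genes, 4 were lower in MYO5BΔIEC, namely Uqcrc2, Uqcrq, Uqcr10 and Uqcrb, and 3 in MYO5B(G519R), which were Uqcrc2, Uqcrq and Uqcr10. The median log2 fold changes were -0.97 and -0.78. When control culture 1 was left out, 7 were lower in MYO5BΔIEC and 7 in MYO5B(G519R), at medians of -1.24 and -0.88, and Uqcrc1 was higher in both. Uqcrc2 (ENSMUSG00000030884, chr7:120635176-120659524), a core protein of the matrix side, was at 388, 544, 560.3 and 523 CPM in control, 256, 256, 313 and 296 CPM in MYO5BΔIEC and 303, 292, 261 and 297 CPM in MYO5B(G519R) cultures. The groups did not overlap, with log2 fold changes of -0.84 ± 0.162 SE (adjusted p = 0.00484 by edgeR) and -0.81 ± 0.143 SE (adjusted p = 0.00442 by edgeR), and the calls held with each culture left out.

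Uqcrc1 (ENSMUSG00000025651, chr9:108936633-108949623), the partner core protein, whose promoter also holds the NRF1 letters, was the exception. It was at 481, 301, 326 and 296 CPM in control, 461, 457, 495 and 505 CPM in MYO5BΔIEC, 439, 446, 451 and 459.5 CPM in MYO5B(G519R) and 480.0, 517, 464 and 474 CPM in treated MYO5BΔIEC cultures. Control cultures 2 to 4 were below all other cultures, and control culture 1 was inside the range of the MYO5B-defective cultures. With all controls its log2 fold changes were 0.46 ± 0.177 SE (adjusted p = 0.0774 by edgeR) and 0.35 ± 0.167 SE (adjusted p = 0.143 by edgeR), which did not pass. When control culture 1 was left out it was higher, at 0.65 (adjusted p = 0.00106 by edgeR) in MYO5BΔIEC and 0.57 (adjusted p = 0.000516 by edgeR) in MYO5B(G519R).

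Uqcrq, a small subunit near the ubiquinone site, had the largest fall of the complex, at 282, 621, 579 and 673 CPM in control, 266, 251, 229 and 236 CPM in MYO5BΔIEC and 302, 295, 204 and 346 CPM in MYO5B(G519R) cultures. It gave -1.13 ± 0.243 SE (adjusted p = 0.00774 by edgeR) and -0.91 ± 0.264 SE (adjusted p = 0.03 by edgeR), and the second was lost without any of 6 cultures (edgeR's adjusted p up to 0.0846). Cytochrome c1, encoded by Cyc1, carries the heme that hands electrons to cytochrome c. It was at 306, 324, 356 and 358 CPM in control, 340.3, 303, 247 and 341 CPM in MYO5BΔIEC and 363, 382, 284 and 378 CPM in MYO5B(G519R) cultures, so that the groups overlapped and control culture 1, although the lowest control, was near the others. Its values were -0.12 ± 0.151 SE (adjusted p = 0.601 by edgeR) and 0.067 ± 0.132 SE (adjusted p = 0.753 by edgeR). The Rieske protein Uqcrfs1 was at 214, 329.6, 337 and 332 CPM in control and 258, 241, 234 and 236 CPM in MYO5BΔIEC cultures. Uqcrfs1 gave a log2 fold change of -0.32 (adjusted p = 0.182 by edgeR), or -0.45 (adjusted p = 0.0057 by edgeR) without control culture 1. Uqcrh, the hinge protein that binds cytochrome c1, was at 97.2, 418, 413 and 451 CPM in control and 176, 189, 179 and 152 CPM in MYO5BΔIEC cultures, the widest gap of these between control culture 1 and the other controls. It gave -0.98 (adjusted p = 0.0744 by edgeR) with that culture and -1.29 (adjusted p = 4.2e-05 by edgeR) without it.

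Cytochrome c itself, the mobile carrier between complexes III and IV, is encoded by Cycs, whose promoter holds the NRF1 letters. It was at 126, 278, 282 and 252 CPM in control, 152, 158, 164 and 132 CPM in MYO5BΔIEC and 163, 156, 139 and 160.1 CPM in MYO5B(G519R) cultures. Control culture 1 was below all cultures of both models and the other 3 controls were above all of them. The log2 fold changes of -0.63 ± 0.232 SE (adjusted p = 0.0673 by edgeR) and -0.60 ± 0.225 SE (adjusted p = 0.0728 by edgeR) did not pass, and without control culture 1 they were -0.83 (adjusted p = 0.000264 by edgeR) and -0.78 (adjusted p = 0.000136 by edgeR).

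Complex IV summed to 1804, 4379.5, 4234 and 4696 CPM in control, 2217, 2190.5, 2079 and 1893 CPM in MYO5BΔIEC and 2483, 2440.3, 1807 and 2584 CPM in MYO5B(G519R) cultures. It had values below control for all 11 generally expressed subunits, and 5 were lower in MYO5BΔIEC (Cox7a2l, Cox7c, Cox7b, Ndufa4 and Cox6c) and 3 in MYO5B(G519R) (Cox7a2l, Cox7c and Cox7b). The median log2 fold changes were -0.93 and -0.79. Without control culture 1, all 11 were lower in both models, at medians of -1.18 and -1.0. Cox7a2l (ENSMUSG00000024248, chr17:83501919-83514333), a relative of subunit 7A that joins complexes III and IV into supercomplexes, was at 245, 398, 437 and 413 CPM in control, 179, 186, 198 and 169 CPM in MYO5BΔIEC and 213, 210.3, 154 and 219.6 CPM in MYO5B(G519R) cultures. No culture of either model reached the lowest control. Its log2 fold changes were -1.02 ± 0.187 SE (adjusted p = 0.00401 by edgeR) and -0.91 ± 0.196 SE (adjusted p = 0.00917 by edgeR), which held with each culture left out.

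Cox7c was at 243, 496, 469 and 506 CPM in control, 214, 225, 242 and 179 CPM in MYO5BΔIEC and 249, 252, 182 and 236 CPM in MYO5B(G519R) cultures. Cox7c gave log2 fold changes of -0.99 (adjusted p = 0.0107 by edgeR) and -0.90 (adjusted p = 0.0174 by edgeR). Cox7b was at 149, 410.1, 369 and 401 CPM in control, 163, 157, 166 and 138 CPM in MYO5BΔIEC and 186, 184, 136 and 184 CPM in MYO5B(G519R) cultures. Cox7b gave log2 fold changes of -1.08 (adjusted p = 0.0155 by edgeR) and -0.94 (adjusted p = 0.0331 by edgeR). Both kept their calls in MYO5BΔIEC in every fit with 1 culture left out, whereas in MYO5B(G519R) Cox7c lost it in 4 of 8 such fits (edgeR's adjusted p up to 0.0539) and Cox7b in 7 of 8 (up to 0.0947). Ndufa4, first assigned to complex I and now known as a subunit of complex IV, was at 110.5, 301, 316 and 351 CPM in control, 122, 118, 115 and 137 CPM in MYO5BΔIEC and 154, 147, 105 and 192 CPM in MYO5B(G519R) cultures. It had the largest fall of the complex in MYO5BΔIEC, -1.13 ± 0.294 SE (adjusted p = 0.0174 by edgeR), a call lost without control culture 3 or 4 or MYO5BΔIEC culture 2 (adjusted p = 0.0516 to 0.0553 by edgeR), and -0.85 ± 0.321 SE (adjusted p = 0.0751 by edgeR) in MYO5B(G519R).

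Other subunits of complex IV showed the same order of cultures, with control culture 1 low and the other 3 controls high. Cox6c was at 155, 393, 378 and 406 CPM in control and 168, 178, 216 and 156 CPM in MYO5BΔIEC cultures, with -0.89 (adjusted p = 0.0339 by edgeR), lost in 6 of 8 fits with 1 culture left out (edgeR's adjusted p up to 0.0956). Cox5b, a zinc-binding subunit, was at 75, 285, 252 and 314 CPM in control and 143, 142, 94.8 and 103 CPM in MYO5BΔIEC cultures. Cox5b gave a log2 fold change of -0.93 (adjusted p = 0.0795 by edgeR), or -1.22 (adjusted p = 0.000257 by edgeR) without control culture 1. Cox8a was at 234, 583, 516 and 656 CPM in control and 324, 323, 253 and 241 CPM in MYO5BΔIEC cultures. Cox8a gave a log2 fold change of -0.80 (adjusted p = 0.0566 by edgeR), or -1.03 (adjusted p = 0.000395 by edgeR) without that culture. Cox5a had the smallest difference of the complex in MYO5BΔIEC. It was at 125, 202, 186 and 187 CPM in control and 141, 124, 123 and 134 CPM in MYO5BΔIEC cultures. Cox5a gave a log2 fold change of -0.42 (adjusted p = 0.077 by edgeR), or -0.55 (adjusted p = 0.00164 by edgeR) without control culture 1.

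Subunits 6A, 6B, 7A and Ndufa4 of complex IV have a general and a tissue-restricted isoform, and in control enteroids the general one was at the higher mean level per length. In the deposited FPKM, which divides counts by gene length, control levels were 719 ± 233 for Cox6a1 and 3.31 ± 3.34 for Cox6a2 (SD, n = 4), 518 ± 259.5 for Cox6b1 and 3.28 ± 2.05 for Cox6b2, 246 ± 93.5 for Cox7a2 and 58.8 ± 30.6 for Cox7a1, and 189 ± 74.7 for Ndufa4 and 5.74 ± 2.68 for Ndufa4l2. Of the other tissue-restricted isoforms, Cox7b2 and Cox8c had no count in any culture, which allows up to 0.0748 to 0.108 CPM by a floor of 3 counts, and Cox8b had at most 6 counts. This floor covers counting error only.

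Of the general isoforms, Cox6a1, Cox6b1 and Cox7a2 did not pass in MYO5BΔIEC with all controls. Cox6a1 was at 273, 558, 572 and 678 CPM in control and 417, 370.2, 339 and 343 CPM in MYO5BΔIEC cultures. Cox6a1 gave a log2 fold change of -0.50 (adjusted p = 0.159 by edgeR), or -0.71 (adjusted p = 0.00147 by edgeR) without control culture 1. Cox6b1 was at 92.8, 468, 458 and 495 CPM in control and 215, 227, 182 and 169.9 CPM in MYO5BΔIEC cultures. Cox6b1 gave a log2 fold change of -0.93 (adjusted p = 0.114 by edgeR), or -1.25 (adjusted p = 7.21e-05 by edgeR) without it. Cox7a2 was at 101, 287, 281 and 289 CPM in control and 129.9, 142, 151 and 124 CPM in MYO5BΔIEC cultures. Cox7a2 gave a log2 fold change of -0.80 (adjusted p = 0.058 by edgeR), or -1.06 (adjusted p = 6.23e-05 by edgeR) without it. In each of the 3, control culture 1 was the lowest of the 8 cultures.

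Cox6b2, known from testis, was the only member called higher with all controls when edgeR was run on each group and control alone with no length correction. With all 4 groups in 1 fit, Cox6b2 and Uqcrc1 were higher in MYO5BΔIEC and Uqcrc1 in treated enteroids. It was at 0.533, 4.12, 4.13 and 6.22 CPM in control, 6.32, 25.6, 16.4 and 7.23 CPM in MYO5BΔIEC and 9.88, 10.7, 14.8 and 5.43 CPM in MYO5B(G519R) cultures, and all MYO5BΔIEC cultures were above all controls. Its log2 fold change was 1.90 ± 0.627 SE (adjusted p = 0.0448 by edgeR) in MYO5BΔIEC, a call lost without control culture 2, 3 or 4 or MYO5BΔIEC culture 2 or 3 (adjusted p = 0.0525 to 0.147 by edgeR), and 1.45 ± 0.558 SE (adjusted p = 0.0813 by edgeR) in MYO5B(G519R). Cox6a2, known from heart and muscle, was at 5.67, 0.997, 1.6 and 0.889 CPM in control and at 0.18, 0, 0 and 0.54 CPM in MYO5BΔIEC and 0.149, 0.237, 0 and 0.0905 CPM in MYO5B(G519R) cultures, with no count or few counts in the models and the highest level in control culture 1. Its edgeR log2 fold changes of -3.61 ± 1 SE (adjusted p = 0.0225 by edgeR) and -4.24 ± 0.858 SE (adjusted p = 0.00702 by edgeR) depend on how the fit treats such low counts, and the first was lost without MYO5BΔIEC culture 1, 2 or 3 (adjusted p = 0.0507 to 0.0609 by edgeR). Ndufa4l2 was at 4.45, 11, 5.19 and 5.22 CPM in control, 3.17, 5.39, 6.76 and 1.56 CPM in MYO5BΔIEC and 8.75, 8.14, 2.72 and 1.93 CPM in MYO5B(G519R) cultures, and its values of -0.61 (adjusted p = 0.33 by edgeR) and -0.27 (adjusted p = 0.734 by edgeR) did not pass.

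Cox7a1 (ENSMUSG00000074218, chr7:30184144-30186078), the heart and muscle isoform of subunit 7A, was at 8.43, 48.3, 34.8 and 38.3 CPM in control. It was at 17.1, 20.1, 21.7 and 8.59 CPM in MYO5BΔIEC, 17.9, 15.4, 10.8 and 14.5 CPM in MYO5B(G519R) and 7.77, 10.6, 4.61 and 4.71 CPM in treated MYO5BΔIEC cultures. Control culture 1 was the lowest control, and the other 3 were above all MYO5B-defective cultures. The log2 fold changes were -0.94 ± 0.449 SE (adjusted p = 0.144 by edgeR) in MYO5BΔIEC and -1.15 ± 0.418 SE (adjusted p = 0.0677 by edgeR) in MYO5B(G519R), and without control culture 1 they were -1.25 (adjusted p = 0.00322 by edgeR) and -1.44 (adjusted p = 0.000138 by edgeR). The muscle markers Des, Myh11, Acta2 and Actg2 summed to at most 0.344 CPM, so the defining transcripts of muscle were near 0 in these cultures.

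**Figure D4:**
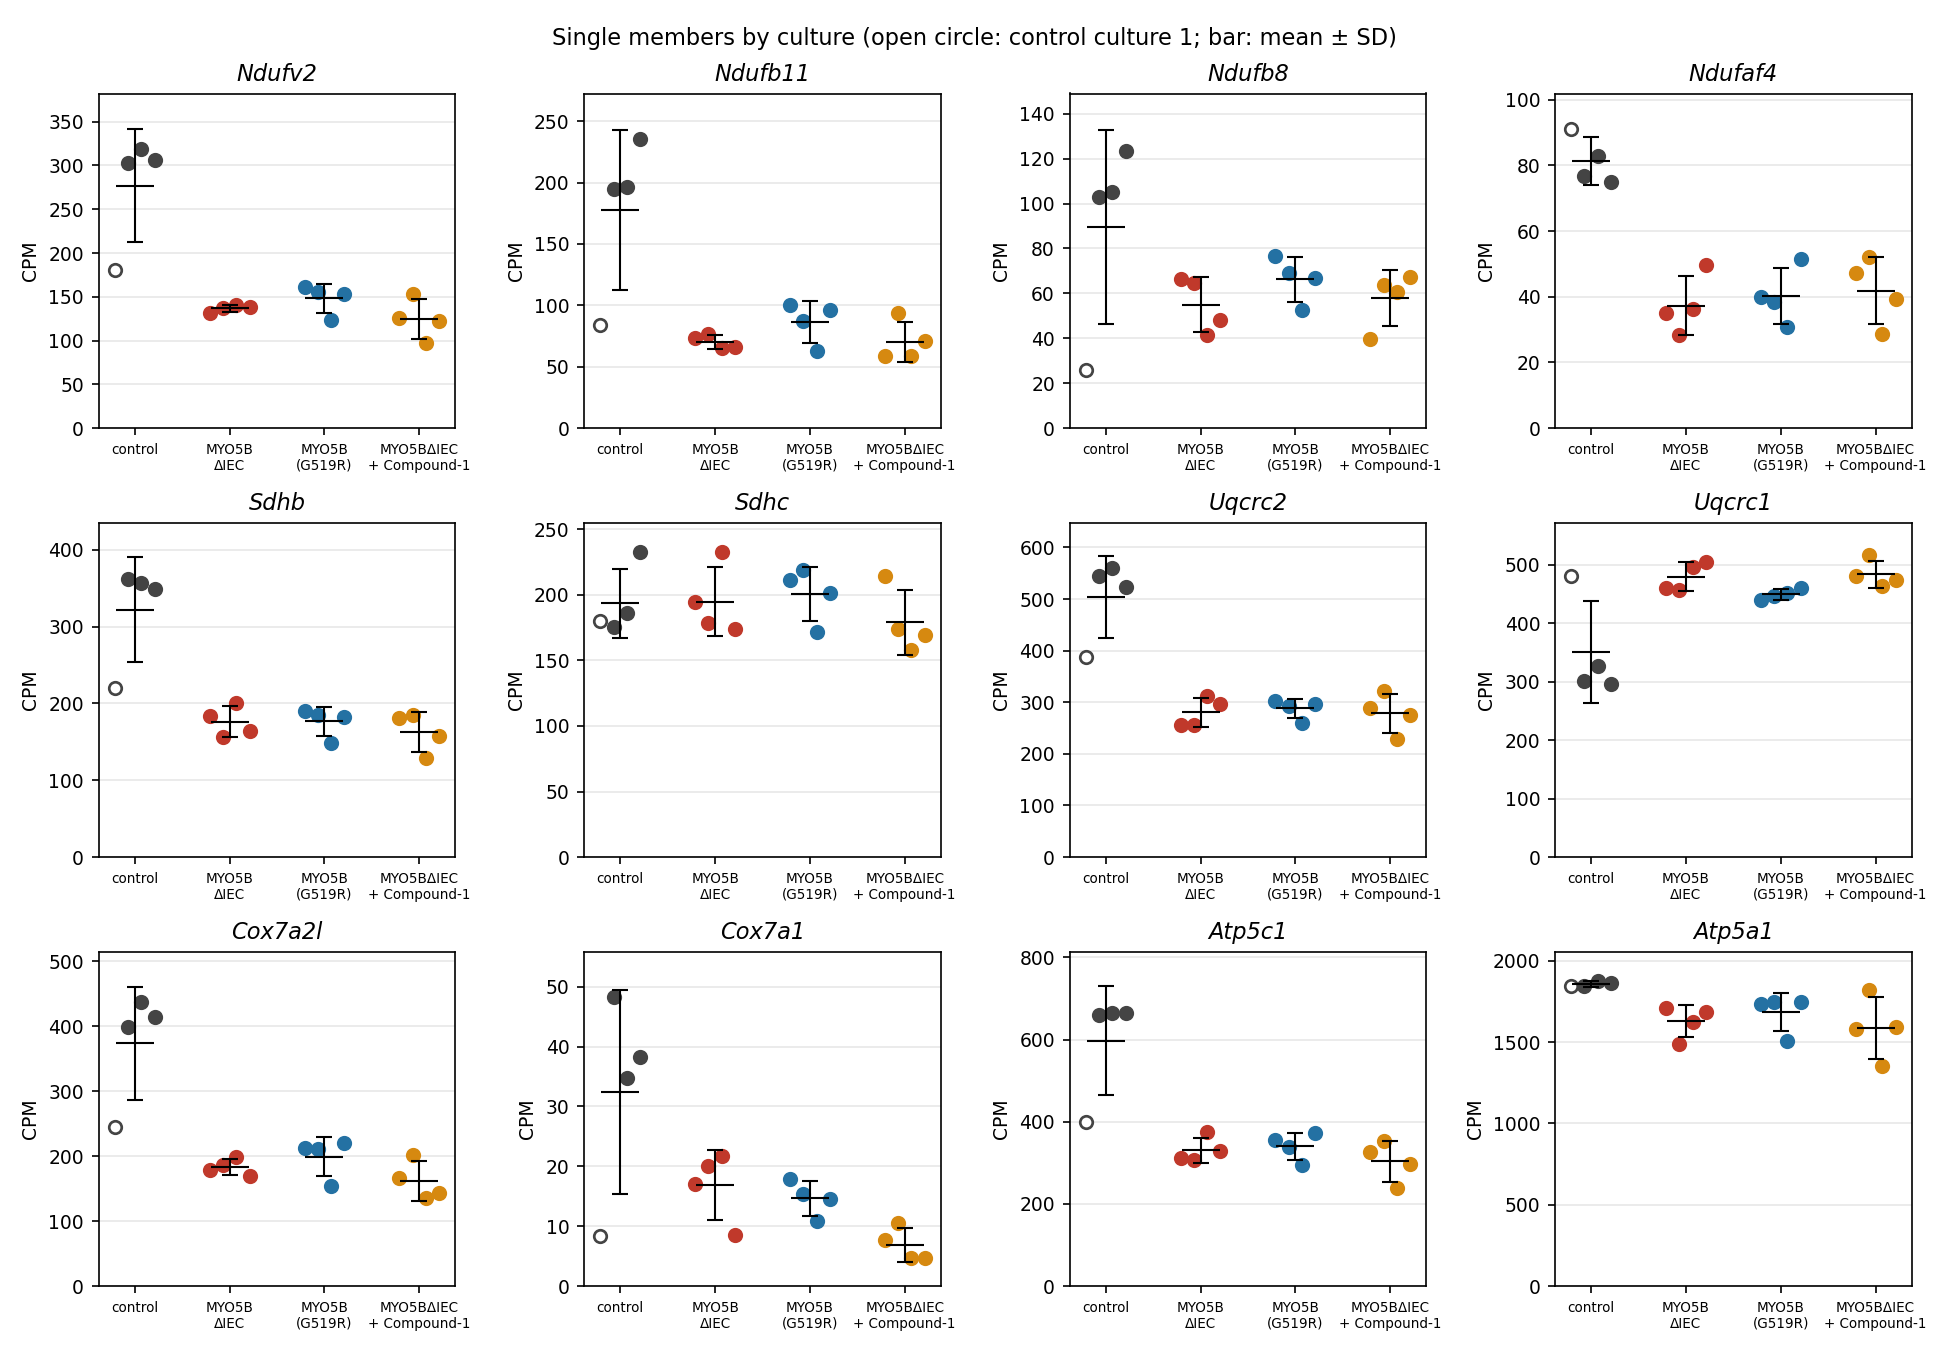
CPM of 12 members (vertical axes, from 0) in the 4 groups, 1 circle per culture, with the mean and SD as a black bar and control culture 1 as an open circle. Ndufv2, Ndufaf4, Sdhb, Uqcrc2, Cox7a2l and Atp5c1 show all cultures of both models below all controls, whereas the controls of Ndufb8 and Cox7a1 include the open circle inside or below the range of the models.

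Complex V is built from the catalytic F1 head, a rotor with a ring of c subunits in the membrane, and a stator. Of the 16 tested genes, 10 were lower in MYO5BΔIEC and 7 in MYO5B(G519R), with median log2 fold changes of -0.88 and -0.75. Leaving out control culture 1 gave 13 lower genes in MYO5BΔIEC and 13 in MYO5B(G519R), at medians of -1.09 and -0.93. The sum was 6203, 9105, 9166 and 9504 CPM in control, 6373, 5827, 5994 and 6291 CPM in MYO5BΔIEC and 6742, 6689, 5589.8 and 7164 CPM in MYO5B(G519R) cultures, in which the alpha and beta subunits have the largest share. Of the head and its central stalk, the gamma subunit passed in both models and the epsilon subunit, Atp5e, in MYO5BΔIEC with all controls, and the alpha, beta and delta subunits did not, a difference that was not itself tested. Atp5c1 (ENSMUSG00000025781, chr2:10056016-10080510), the gamma subunit that forms the rotor shaft, was at 399, 659, 665 and 666 CPM in control, 310.5, 306, 374 and 329 CPM in MYO5BΔIEC and 356, 339, 294 and 371 CPM in MYO5B(G519R) cultures. All cultures of the models were below all controls, with log2 fold changes of -0.85 ± 0.189 SE (adjusted p = 0.00876 by edgeR) and -0.81 ± 0.18 SE (adjusted p = 0.0103 by edgeR), which held with each culture left out.

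Atp5a1, the alpha subunit, was at 1844, 1846, 1879 and 1862 CPM in control, 1709.9, 1490.5, 1627 and 1686 CPM in MYO5BΔIEC and 1732, 1749, 1509 and 1749 CPM in MYO5B(G519R) cultures. The controls were within a narrow range and above every culture of both models, but the differences of -0.18 ± 0.142 SE (adjusted p = 0.372 by edgeR) and -0.14 ± 0.125 SE (adjusted p = 0.438 by edgeR) were small and did not pass with or without control culture 1. The catalytic beta subunit Atp5b was at 1985, 2193, 2259 and 2235 CPM in control, 1852, 1623, 1759 and 1936 CPM in MYO5BΔIEC and 1915, 1906, 1679 and 2091 CPM in MYO5B(G519R) cultures. Atp5b gave log2 fold changes of -0.27 ± 0.149 SE (adjusted p = 0.206 by edgeR) and -0.19 ± 0.133 SE (adjusted p = 0.317 by edgeR). Atp5d, the delta subunit of the head, had the highest value of the complex in MYO5BΔIEC. It was at 223, 344, 359 and 389.9 CPM in control, 412, 390.5, 309.6 and 338 CPM in MYO5BΔIEC and 404, 419, 329.7 and 419 CPM in MYO5B(G519R) cultures, and its differences of 0.15 ± 0.193 SE (adjusted p = 0.617 by edgeR) and 0.26 ± 0.179 SE (adjusted p = 0.322 by edgeR) did not pass.

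The c subunit of the ring is encoded by 3 genes that give the same mature protein, and in control enteroids Atp5g3 was at 223 ± 78.5 FPKM, Atp5g2 at 169.7 ± 53.6 FPKM and Atp5g1 at 47 ± 8.35 FPKM (SD, n = 4). Atp5g1 was at 172, 258, 252 and 269 CPM in control, 136, 136, 133 and 143 CPM in MYO5BΔIEC and 158, 156, 117 and 174 CPM in MYO5B(G519R) cultures, with log2 fold changes of -0.79 (adjusted p = 0.00581 by edgeR) and -0.65 (adjusted p = 0.021 by edgeR). Atp5g2 was at 155, 316, 331 and 370.0 CPM in control, 152, 140.3, 107 and 149 CPM in MYO5BΔIEC and 186, 179, 130.4 and 199.6 CPM in MYO5B(G519R) cultures. Atp5g2 gave log2 fold changes of -1.09 (adjusted p = 0.0102 by edgeR) and -0.75 (adjusted p = 0.0496 by edgeR). Both were lower in MYO5BΔIEC in all 8 fits with 1 culture left out, but in MYO5B(G519R) Atp5g1 lost the call in 6 of 8 (edgeR's adjusted p up to 0.0612) and Atp5g2 in 7 of 8 (up to 0.132). Atp5g3 was at 234, 613, 555 and 602 CPM in control, 452, 414, 352 and 428 CPM in MYO5BΔIEC and 452, 464, 378 and 519.7 CPM in MYO5B(G519R) cultures. Its values of -0.28 ± 0.269 SE (adjusted p = 0.481 by edgeR) and -0.14 ± 0.269 SE (adjusted p = 0.737 by edgeR) did not pass, and without control culture 1 they were -0.52 (adjusted p = 0.00747 by edgeR) and -0.35 (adjusted p = 0.0308 by edgeR). A difference in response among the 3 genes was not tested.

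Of the remaining subunits, Atp5h and Atp5mpl were lower in MYO5BΔIEC in every fit with 1 culture left out, and Atp5e, Atp5f1, Atp5j, Atp5j2 and Atp5l lost the call in at least 1 (edgeR's adjusted p up to 0.116). Atp5k, the e subunit, which takes part in dimers of the enzyme and whose promoter holds the NRF1 letters, had the lowest log2 fold change of the complex in MYO5BΔIEC. It was at 5.05, 135, 99.4 and 142 CPM in control, 60.2, 54.1, 16.4 and 30.0 CPM in MYO5BΔIEC and 65.1, 68.1, 41.6 and 72.6 CPM in MYO5B(G519R) cultures. Control culture 1 was the lowest of these cultures by far and the spread within groups was wide, so that -1.24 ± 0.73 SE (adjusted p = 0.232 by edgeR) did not pass, and without control culture 1 the value was -1.64 (adjusted p = 0.00378 by edgeR). Atp5s, which is not a subunit, was at 20.4, 20.7, 18.3 and 19.6 CPM in control, 9.4, 10.7, 11.5 and 12.4 CPM in MYO5BΔIEC and 13.6, 13, 9.49 and 9.92 CPM in MYO5B(G519R) cultures. It was lower without overlap, at -0.84 (adjusted p = 0.00323 by edgeR) and -0.78 (adjusted p = 0.0062 by edgeR), in all 8 fits of each model. The second Atp5o identifier had no count in any culture, and the first was at 76.4 to 337 CPM in control and 104 to 150.1 CPM in MYO5BΔIEC cultures.

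The 2 models were also compared directly, which avoids the shared controls. None of 89 members passed between MYO5B(G519R) and MYO5BΔIEC with edgeR, and 0 had an unadjusted p under 0.05, where 0.00557% of all 17943 genes (1 gene) passed. DESeq2 called 0 lower and 0 higher. Values were a little above 0 for most, with a median log2 difference (MYO5B(G519R) over MYO5BΔIEC) of 0.13 over the members and -0.014 over all genes. Differences were above 0 for 70 of the 77 subunits tested and ran from -0.16 to 0.61, with a median SE of 0.13. By the complex I sum, the third MYO5B(G519R) culture was below all MYO5BΔIEC cultures and the other 3 were above them. A p that misses the threshold does not show that the models are alike.

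The study treated MYO5BΔIEC enteroids with Compound-1 to look for direct targets of LPAR5, and it also names an agonist effect of Compound-1 on human LPAR3. No member passed between treated and untreated MYO5BΔIEC enteroids with edgeR, where 0% of 18037 genes passed and 1355 had an unadjusted p under 0.05, among them 2 of the 90 members. DESeq2 called 43 genes lower and 48 higher. The median log2 difference (treated over untreated) was -0.047 over the members and 0.003 over all genes, and over the 77 subunits single values ran from -0.47 to 0.24 with a median SE of 0.154. The sum of all subunits was 14124 to 14982 CPM without and 12749 to 16862 CPM with Compound-1, so that the treated cultures spread around the untreated ones. The 1 member among them was Cox7a1, whose treated cultures at 7.77, 10.6, 4.61 and 4.71 CPM were below MYO5BΔIEC cultures 1 to 3 and overlapped with culture 4, the untreated cultures being at 17.1, 20.1, 21.7 and 8.59 CPM. Cox7a1 had a log2 fold change of -1.32 ± 0.343 SE (adjusted p = 0.532 by edgeR) with edgeR, and the DESeq2 adjusted p was 0.0336. Other fits gave Cox7a1 an adjusted p of 0.075 to 1.

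Treated MYO5BΔIEC enteroids were also compared with the same controls, and most members again had values below them. Of 90 members 48 were lower and none higher with edgeR (13.7% of all 17937 genes lower, 15.7% higher), with a median of -0.94. An unadjusted p under 0.05 in either direction was found for 70 members, and DESeq2 called 58 lower and 1 higher. Neither count has its share over all genes beside it here. The groups did not overlap for 21 members, against 13.6% of all genes. With control culture 1 left out, 77 were lower and 1 higher (19.2% of all genes lower), and with the length trend removed 38 were lower (14.8%) at a median of -0.60. The count fell to 24, 24 and 22 without control culture 2, 3 and 4, and to 23 and 25 without treated culture 3 and 4. Here too, these smaller fits are given without a share of all genes. By complex, 20 of 36 subunits were lower in complex I, 2 of 4 in II (Sdhb and Sdhd), 4 of 9 in III, 6 of 11 in IV and 10 of 16 in V. Ndufv2 was at 126, 153, 96.7 and 122 CPM, Sdhb at 181, 184, 128 and 158 CPM and Cox7a2l at 166, 202, 135 and 143 CPM in treated cultures, all below every control. Their log2 fold changes against control were -1.15 (adjusted p = 0.00565 by edgeR), -0.98 (adjusted p = 0.00723 by edgeR) and -1.21 (adjusted p = 0.005 by edgeR). Cox7a1 was also lower, at -2.23 ± 0.475 SE (adjusted p = 0.00846 by edgeR).

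**Figure D5:**
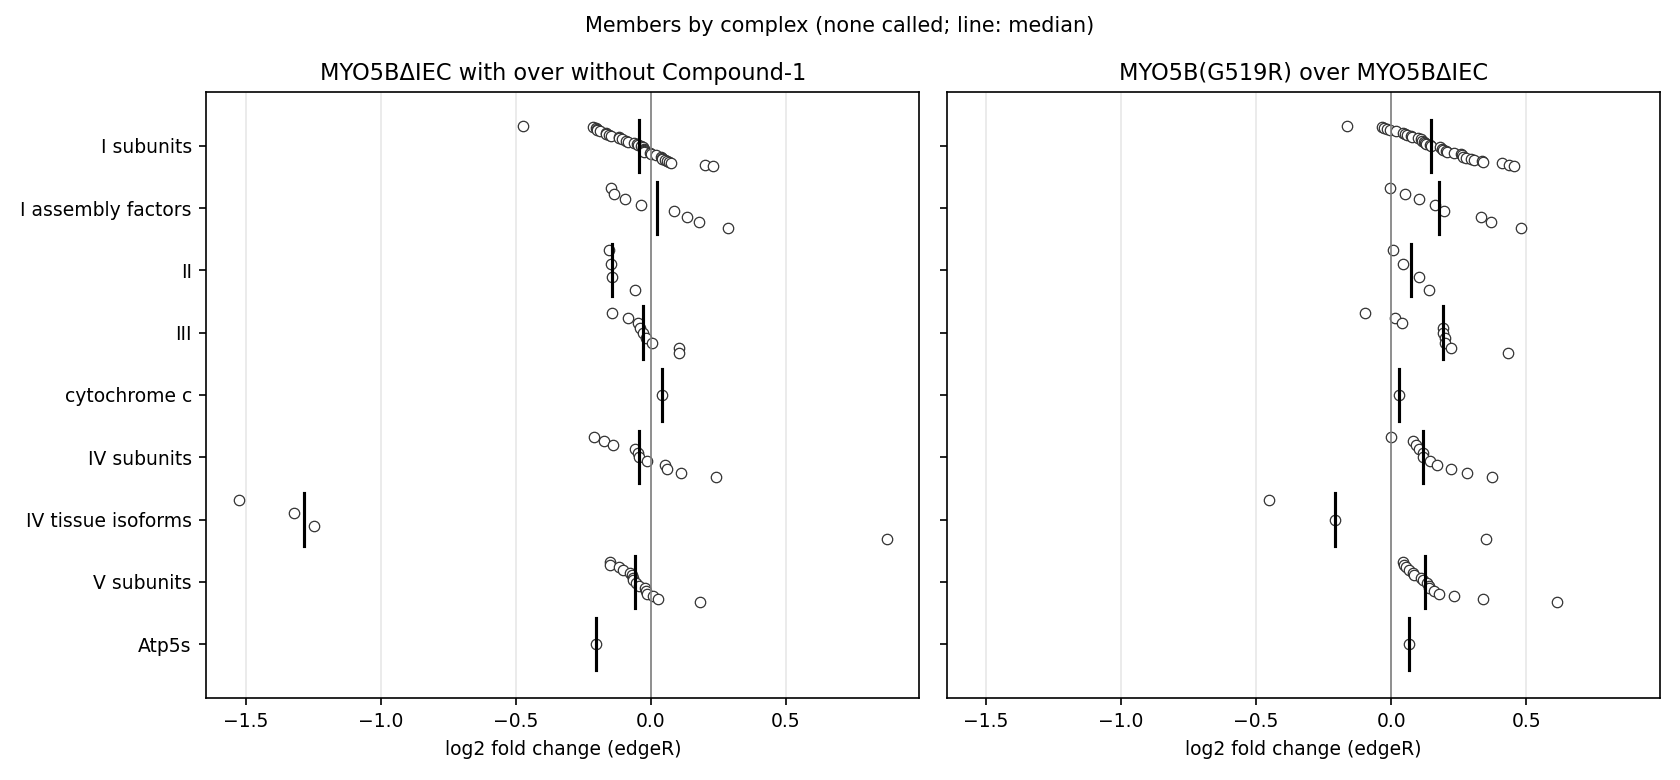
Log2 fold change of each tested member (horizontal axis) by complex and class (vertical axis) for MYO5BΔIEC with over without Compound-1 on the left and MYO5B(G519R) over MYO5BΔIEC on the right, with a black line at each median. All symbols are white, since no member passed with edgeR, and the medians over the members are -0.047 and 0.13.

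Genes of the same pathway that the symbol rule does not cover were read from lists. The 13 protein genes of the mitochondrial genome, which encode the partners of these subunits in complexes I, III, IV and V, summed to 61484, 99422, 118109 and 108293 CPM in control, 38416, 39190.0, 62150.1 and 52183 CPM in MYO5BΔIEC, 37788, 41659.5, 48281 and 43014 CPM in MYO5B(G519R) and 57468, 43844, 35609 and 46143 CPM in treated cultures. Of the 13, 11 were lower in each of MYO5BΔIEC and MYO5B(G519R), with median log2 fold changes of -1.22 and -1.28, and 13 in treated MYO5BΔIEC enteroids. Leaving out control culture 1 gave 12 lower genes in each model, at medians of -1.42 and -1.42, and 13 in treated enteroids. Values for mt-Co3, a core subunit of complex IV, were -1.34 (adjusted p = 0.00182 by edgeR) and -1.28 (adjusted p = 0.00947 by edgeR), and mt-Nd3 of complex I, at -0.27 (adjusted p = 0.696 by edgeR) and -0.26 (adjusted p = 0.66 by edgeR), did not pass. Cox4i1, subunit 4 of complex IV, was at 491, 736, 716 and 815 CPM in control and 516, 506, 517 and 495 CPM in MYO5BΔIEC cultures and did not pass with control culture 1 included, with -0.43 (adjusted p = 0.0865 by edgeR) and -0.40 (adjusted p = 0.13 by edgeR).

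Of 42 assembly factors of complexes I to V outside the rule, 39 were tested, and 14 were lower in MYO5BΔIEC and 10 in MYO5B(G519R), with median log2 fold changes of -0.41 and -0.33 and none higher. For this list and those that follow, the shares of all genes tested were 13.8% lower and 13.5% higher in MYO5BΔIEC and 13.7% lower and 13.1% higher in MYO5B(G519R). With control culture 1 left out, 23 were lower in MYO5BΔIEC, and 18 lower and 1 higher in MYO5B(G519R). Among 12 regulators of nuclear respiratory genes and of mitochondrial DNA expression, 4 were lower and 1 higher in each model. Without control culture 1, 4 were lower and 4 higher in each, and with the length trend removed the only higher call in MYO5BΔIEC was lost. Tfam, which packages and transcribes mitochondrial DNA, was at 109.5, 117, 129.5 and 138 CPM in control, 63.7, 55.3, 62.9 and 77.2 CPM in MYO5BΔIEC and 76.9, 73.7, 60.3 and 83.8 CPM in MYO5B(G519R) cultures. Tfam gave log2 fold changes of -0.93 (adjusted p = 0.00207 by edgeR) and -0.75 (adjusted p = 0.00402 by edgeR). Nrf1, the factor behind the letters GCGCATGCG, was at 51.2, 43.3, 45.7 and 42.6 CPM in control and 41.5, 30.5, 31.3 and 46.2 CPM in MYO5BΔIEC cultures. Nrf1 gave log2 fold changes of -0.28 (adjusted p = 0.218 by edgeR) and -0.12 (adjusted p = 0.489 by edgeR), and did not pass. Gabpa, the DNA-binding subunit of GABP, was lower at -0.45 (adjusted p = 0.0312 by edgeR) and -0.36 (adjusted p = 0.0421 by edgeR), and the coactivator Ppargc1b was higher at 0.65 (adjusted p = 0.0446 by edgeR) and 0.78 (adjusted p = 0.00652 by edgeR). Of 20 other mitochondrial proteins (pores, import, cristae, carriers and chaperones), 7 were lower and 1 higher in MYO5BΔIEC and 4 lower and 1 higher in MYO5B(G519R), with median log2 fold changes of -0.41 and -0.29. With the first control culture left out, 9 were lower and 2 higher in MYO5BΔIEC and 9 lower and 1 higher in MYO5B(G519R). The higher one in each was Cs, citrate synthase of the tricarboxylic acid cycle, at 0.48 (adjusted p = 0.0351 by edgeR) and 0.37 (adjusted p = 0.049 by edgeR), and both calls were lost with the length trend removed.

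Several members have near-identical copies in the genome, and some counts can be split between gene and copy. Of 18 pseudogenes named for respiratory subunits, 11 had counts, which came to 0.0893 to 0.197% of the counts of the members per culture. How reads with several alignments were counted, and whether strand was used, is not given in the sources used here, so levels of members with copies are uncertain to that extent.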

How the data were processed

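RNA was sequenced from 16 enteroid cultures, and the authors aligned reads to GRCm38/mm10 with STAR 2.5 and counted them per gene with HTSeq 0.6.1. The deposited tables hold these raw read counts per gene and, separately, FPKM, which the authors computed from counts, gene length and depth. Their processing notes also name TopHat, and the authors tested with DESeq2.

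Each comparison was fitted with edgeR 4.0.16 (quasi-likelihood test, TMM scaling) in R 4.3.3, on genes that reached 10 counts in 2 or more of 8 libraries, with Benjamini-Hochberg adjustment over all genes and a threshold of 0.05. The scripts were tested on simulated data. The labels name no batch. Alternatives were DESeq2 1.42.0, limma 3.58.1 on log2 FPKM, other scaling and filters, a replicate block, removal of each library's length trend (a lowess over log2 gene length) and leaving out each culture; the length trend removed together with control culture 1 was added after seeing the data. Depth was 27804968 to 40101729 counts per culture.

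The members, gene lists and promoter letters were chosen with earlier results of these data known. Members were named by their role in each complex, by the largest and smallest change in MYO5BΔIEC per complex, or by a call higher than control or between MYO5B-defective groups; Ndufaf4, Uqcrc2, Cox7b and Atp5s fall outside that rule and were chosen after their values were seen. Promoter sequences are from RefSeq (GRCm38.p6). Values of 1 member named by the rule are not reported here.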

Additional observations from a re-analysis of the deposited data

Results flagged for a closer look

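Dixon's criterion was applied to 204 sets of 4 cultures (named members, and sums by complex, in each group), and 29 sets held a culture far from the other 3. For independent sets chance alone gives about 1 in 20. These sets share the same cultures and the sums contain named members, so that rate is no yardstick for the 29. Of the 29, 20 were in control culture 1. In complex I it was low for Ndufv1 (163.2 CPM against 189.6 to 190.6 CPM in the other 3 controls), Ndufv2 (180.2 against 302.3 to 318.3 CPM), Ndufs8 (95.4 against 172.9 to 180.6 CPM), Ndufab1 (106.3 against 144.9 to 150.6 CPM) and the sum of the complex (2816.3 against 5463.5 to 5949.3 CPM). In complex II it was low for Sdhb (219.5 against 348.7 to 362.2 CPM) and Sdhd (185.4 against 470.1 to 491.0 CPM). In complex III, Uqcrfs1 (214.5 against 329.6 to 337.4 CPM), Uqcrh (97.2 against 412.7 to 450.6 CPM) and the sum (2030.3 against 3266.0 to 3490.2 CPM) were low and Uqcrc1 was high (480.6 against 296.3 to 326.1 CPM). Complex IV was low for Cox6c (154.7 against 378.1 to 406.3 CPM), Cox7c (242.8 against 469.0 to 505.6 CPM), Cox6b1 (92.8 against 458.0 to 495.2 CPM), Cox7a2 (100.9 against 280.9 to 289.3 CPM), Cox7b (149.1 against 368.8 to 410.1 CPM) and its sum (1803.8 against 4233.9 to 4696.3 CPM). Complex V was low for Atp5c1 (398.6 against 658.6 to 665.5 CPM), Atp5g3 (234.1 against 555.3 to 613.0 CPM) and its sum (6203.0 against 9105.2 to 9504.0 CPM).

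A further 7 sets were set apart by MYO5B(G519R) culture 3, which was below the other 3 cultures of its group for Ndufs7 (97.6 against 131.3 to 132.9 CPM), Cox8a (244.4 against 341.3 to 354.0 CPM), Cox6a1 (315.8 against 417.9 to 434.6 CPM), Cox7a2l (153.7 against 210.3 to 219.6 CPM), Cox7b (136.4 against 183.8 to 186.1 CPM), Atp5a1 (1508.9 against 1732.1 to 1749.4 CPM) and Atp5d (329.7 against 403.6 to 418.7 CPM). Over all members at 1 CPM or more, the median log2 ratio of this culture to the others of its group was -0.43. The remaining 2 were Ndufa4 in treated MYO5BΔIEC culture 2 (152.5 CPM against 111.4 to 117.1 CPM) and Ndufa4l2 in control culture 2 (11 CPM against 4.45 to 5.22 CPM), both high.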

How the results depend on the processing

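Over the named members and all alternatives, 760 values for MYO5BΔIEC, 730 for MYO5B(G519R) and 752 for treated MYO5BΔIEC enteroids kept their direction and their side of the threshold; 54, 50 and 40 came to pass the threshold, 34, 67 and 56 no longer passed it, and 7, 8 and 7 changed sign. The number of members called ranged from 27 to 82 in MYO5BΔIEC, from 12 to 80 in MYO5B(G519R) and from 22 to 78 in treated enteroids when 1 culture was left out, and the highest count was in each case the one without control culture 1. With the length trend removed and that culture left out, 76 and 74 members were called in MYO5BΔIEC and MYO5B(G519R). For MYO5B(G519R), limma called 23 on log2(FPKM + 1) and again 23 on log2(FPKM + 0.1). No share of all genes is given for these counts, except for lower calls with only control culture 1 left out. Between treated and untreated MYO5BΔIEC enteroids, DESeq2 called 1 member.

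Deviations of cultures with the same replicate number from their group means had correlations of -0.184 to 0.11 in the comparisons with control. Between MYO5B(G519R) and MYO5BΔIEC they reached 0.269 for number 3 and 0.382 for number 4. Cultures with unlike numbers were not compared in this way, so whether the numbers mark a pairing is not settled. A replicate block gave 22 calls in MYO5B(G519R), 34 in MYO5BΔIEC and 49 in treated enteroids against control, given here without a share of all genes.

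Changes of sign were limited to members that did not pass. Atp5k in MYO5B(G519R) was at 0.116 by limma with a pseudocount of 1 FPKM and 0.145 with one of 0.1 FPKM. With the length trend removed, Cox6a1 was at 0.069 in MYO5B(G519R) and 0.087 in treated enteroids and Ndufa4l2 at 0.038 in MYO5B(G519R), or 0.002 with control culture 1 also left out. With both changes, Cyc1 was at 0.015 and Sdhc at -0.003 in MYO5BΔIEC, and with the block Cyc1 was at -0.006 in treated enteroids. With 1 culture left out, Atp5d ranged from -0.001 to 0.238 in MYO5BΔIEC and, when treated, from -0.028 to 0.204, Cyc1 from -0.095 to 0.082 in treated enteroids, Ndufa4l2 from -0.6 to 0.118 and Sdha from -0.211 to 0.015 in MYO5B(G519R), and Sdhc from -0.082 to 0.116 in MYO5BΔIEC. The cause of these changes was not tested. Depth limits Cox6a2, Cox7b2, Cox8b and Cox8c, which were at or near 0 counts in most cultures.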
